A study of Mus musculus with 4 samples.

Results

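The genes described here are 10 immediate early genes of the stress and growth factor response: Fos, Fosb, Jun, Junb, Jund, Egr1, Egr2, Atf3, Ier2 and Nr4a1. They were chosen by symbol, and all 10 were found among the 23284 gene symbols of each library. Messenger RNA was sequenced from living podoplanin-positive stromal cells sorted from the whole mouse large intestine, without cells carrying CD45 (leukocytes), CD31 (endothelium) or EpCAM (epithelium). Each of the 4 groups has 1 library. On the BALB/c strain these are a wild type (WT) and a Rag2 knockout (KO), and on the C57BL/6J strain a WT and an IL-10 KO. The Rag2 KO lacks the recombinase that T and B cells need to mature, and the IL-10 KO lacks a cytokine that restrains inflammation. The sources used here give no age, sex or number of animals for a library. A single library per group leaves the spread between animals unmeasured, so no p-value is given, and "higher" or "lower" refers to these libraries and not to the genotypes.

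Immediate early genes are switched on within minutes by growth factors, cytokines or mechanical and chemical stress, without new protein synthesis. Kinases of the MAPK pathways activate factors that already sit at their promoters, such as serum response factor, which binds the CArG box, and CREB, which binds cyclic AMP response elements. The proteins made are mostly transcription factors: FOS and JUN proteins pair through leucine zippers to form AP-1, and EGR proteins bind GC-rich sites through zinc fingers. The messages are short-lived, and in sorted cells their levels are known to respond to the tissue dissociation itself.

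The sort marker gene Pdpn had between 158 and 292.5 FPKM in the 4 libraries (fragments scaled by transcript length and by the fragments mapped, a level per length). The steps between the lowest FPKM values corresponded to about 9927000, 9653000, 8700000 and 8360000 fragments in BALB/c WT, Rag2 KO, C57BL/6J WT and IL-10 KO. Il10 had 129.9 FPKM in the library labelled IL-10 KO against 3.33 in its WT, and whole-gene values do not show which part of a gene was deleted. The names IL-10 KO and Rag2 KO here stand for the libraries so labelled. Rag2 was listed at 0 in 3 libraries and at 0.712 FPKM in the library labelled Rag2 KO. The C57BL/6J WT library held both Xist (23.0 FPKM) and the Y-linked Ddx3y (16.9 FPKM), whereas the IL-10 KO had 44.9 and 0.0269 FPKM. The BALB/c WT had 0.0509 FPKM of Xist and 36.3 of Ddx3y, and the Rag2 KO 0.105 and 31.5. Sex-linked RNA therefore differed within the IL-10 comparison and between the WTs, and was alike in both BALB/c libraries. Gapdh was at 0.349 FPKM or less in every library, so a low value in these files need not mean a silent gene. None of the 10 immediate early genes was listed at 0.

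The regulatory sequences just before the start sites of Egr2, Fos and Nr4a1 are shown because Egr2 differed most between libraries, Fos was among the most abundant and Nr4a1 had the most TGACG matches. The RefSeq promoter table (GRCm38.p6) had entries for 8 of the 10 genes, all but Egr1 and Ier2. Each line gives the 150 bases before a start site, 5′ to 3′, with no GENCODE exon in them. Capitals mark TGACG, the core of a cyclic AMP response element, on either strand (CGTCA in the printed strand), and the CArG box. The windows are chr10:67537719-67537868 (plus strand) for Egr2, chr12:85473740-85473889 (plus strand) for Fos and chr15:101266696-101266845 (plus strand) for Nr4a1.
Egr2: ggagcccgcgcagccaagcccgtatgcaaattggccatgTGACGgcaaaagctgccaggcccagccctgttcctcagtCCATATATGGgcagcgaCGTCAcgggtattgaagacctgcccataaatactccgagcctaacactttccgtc
Fos: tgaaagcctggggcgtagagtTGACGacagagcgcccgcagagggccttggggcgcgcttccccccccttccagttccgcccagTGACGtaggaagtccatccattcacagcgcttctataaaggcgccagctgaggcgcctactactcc
Nr4a1: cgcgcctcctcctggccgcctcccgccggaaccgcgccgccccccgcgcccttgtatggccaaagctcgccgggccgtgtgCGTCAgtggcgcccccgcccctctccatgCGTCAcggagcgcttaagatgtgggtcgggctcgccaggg

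Over the 250 bases before the start sites, TGACG on either strand was found for 6 of the 8 genes with an entry: Fos, Fosb, Junb, Egr2, Atf3 and Nr4a1. The same letters occurred in 17.7% of all 32817 windows of that length in the table. Nr4a1 held 4 matches, and the nearest of them began 69 and 40 bases before the start. In Fos the matches began 129 and 66 bases before the start. The CArG box was searched only as the exact pattern of CC, 6 letters that are A or T, and GG. In that form it was found for Egr2 alone of the 8 genes, beginning 72 bases before the start shown, against 1.47% of all windows. Near matches and sites more than 250 bases before a start were not searched, so they may be present in the other genes. Egr2 has 5 windows in the table, and all were searched. A gene was counted if any of its windows matched, whereas the percentages are per single window. The full element TGACGTCA and the AP-1 site TGACTCA, searched on both strands, were found for 0 of the 8 genes, against 1.55% and 4.46% of windows. TGACG is part of TGACGTCA, so these searches overlap. A match describes letters and not binding.

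The 10 genes were compact, which the choice of symbols did not use. Jun, Junb, Jund and Ier2 have a single exon in the longest coding transcript of GENCODE M21, against 2.19% of 11537 expressed coding genes. The median number of exons was 2 against 9, and the median genomic span was 3.85 kb against 22.0 kb. Junb (chromosome 8, 84976909 to 84978748) and Ier2 (chromosome 8, 84661331 to 84662852) lie 314 kb apart. Exons of Jun and Jund overlap antisense transcripts, and exons of Junb overlap Prdx2 on the opposite strand. Whether counting used strand is not given, so reads of such partners may not be told apart. Prdx2 had between 91.9 and 135 FPKM, against at least 2191 FPKM for Junb.

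Together the 10 genes made up a few percent of the summed FPKM in every library. Their summed level was 16789 FPKM in BALB/c WT, 15222 in the Rag2 KO, 20949.8 in C57BL/6J WT and 14040.5 in the IL-10 KO. These sums were 3.76%, 3.25%, 4.44% and 2.89% of all FPKM in the same order. Without the small RNA rows, which are included in that total, they were 4.36%, 3.58%, 5.21% and 3.17%. In each library 7 or 8 of the 10 genes were among the 100 most abundant rows. Fos, Egr1 and Junb held the top 3 places among the members in every library, and Ier2, Jund and Egr2 the last 3, always in that order. Egr2 was 16.1 times below the most abundant member in BALB/c WT and 61.8 times below it in the IL-10 KO.

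**Figure D1:**
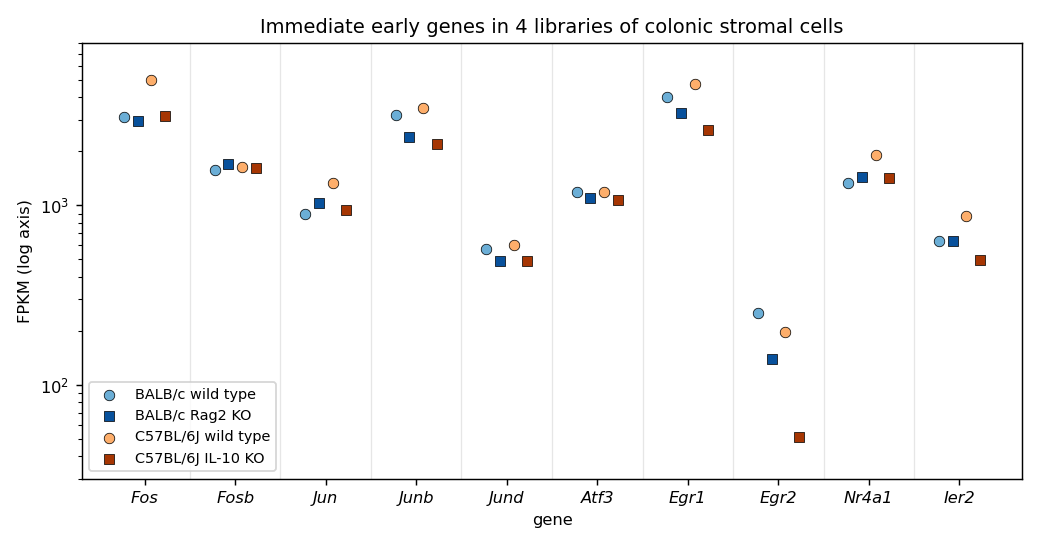
Level of each immediate early gene in each library, in FPKM on a log axis, with circles for WTs, squares for KOs, blue for BALB/c and orange to brown for C57BL/6J; each point is 1 library. Fos stands apart in C57BL/6J WT (5012 FPKM against 2965 to 3141 in the others), and Egr2 is lowest in the IL-10 KO (50.9 FPKM).

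Fos (chromosome 12, 85473890 to 85477274), the founding FOS subunit of AP-1, had 3121 FPKM in BALB/c WT, 2965 in the Rag2 KO, 5012 in C57BL/6J WT and 3141 in the IL-10 KO. The C57BL/6J WT was the high library, and the other 3 lay close together. The log2 ratio of FPKM + 1 was -0.67 for the IL-10 KO against its WT and -0.07 for the Rag2 KO against its own. Between the WTs (BALB/c against C57BL/6J) it was -0.68, as large as the IL-10 difference.

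Fosb (chromosome 7, 19302696 to 19310118), a second FOS partner of JUN proteins, had 1573 FPKM in BALB/c WT, 1711 in the Rag2 KO, 1643 in C57BL/6J WT and 1615 in the IL-10 KO. No library stood apart for Fosb, and its highest and lowest values were 1.09 times apart. Its log2 ratios were -0.02 for IL-10, 0.12 for Rag2 and -0.06 between the WTs. Fos therefore varied relative to Fosb inside the libraries: the Fos to Fosb ratio was 3.05 in C57BL/6J WT and between 1.73 and 1.98 in the others. Fos made up 73.1% of the summed FPKM of Fos, Fosb, Fosl1 and Fosl2 in C57BL/6J WT and 60.9% to 63.7% elsewhere. Such ratios inside a library do not depend on the scaling of the library.

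Jun (chromosome 4, 95049036 to 95052222), the JUN subunit with the strongest activating function in AP-1, had 898 FPKM in BALB/c WT, 1035 in the Rag2 KO, 1333 in C57BL/6J WT and 939.9 in the IL-10 KO. C57BL/6J WT was again the high library. The log2 ratio was -0.50 for IL-10 and 0.21 for Rag2, and between the WTs it was -0.57.

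Junb, a JUN protein that activates more weakly and can restrain Jun, had 3187 FPKM in BALB/c WT, 2407 in the Rag2 KO, 3479 in C57BL/6J WT and 2191 in the IL-10 KO. Both WTs lay above both KOs. The log2 ratios were -0.67 for IL-10, -0.40 for Rag2 and -0.13 between the WTs.

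Jund (chromosome 8, 70697739 to 70700616), the most steadily expressed JUN gene, had 571 FPKM in BALB/c WT, 490.4 in the Rag2 KO, 598 in C57BL/6J WT and 487 in the IL-10 KO. The WTs were again above the KOs, by log2 ratios of -0.30 for IL-10 and -0.22 for Rag2. Junb was the main JUN message in all libraries, with 60.6% to 68.4% of the summed FPKM of the family, while Jun held 19.3% in BALB/c WT and 24.6% to 26.3% in the others.

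**Figure D2:**
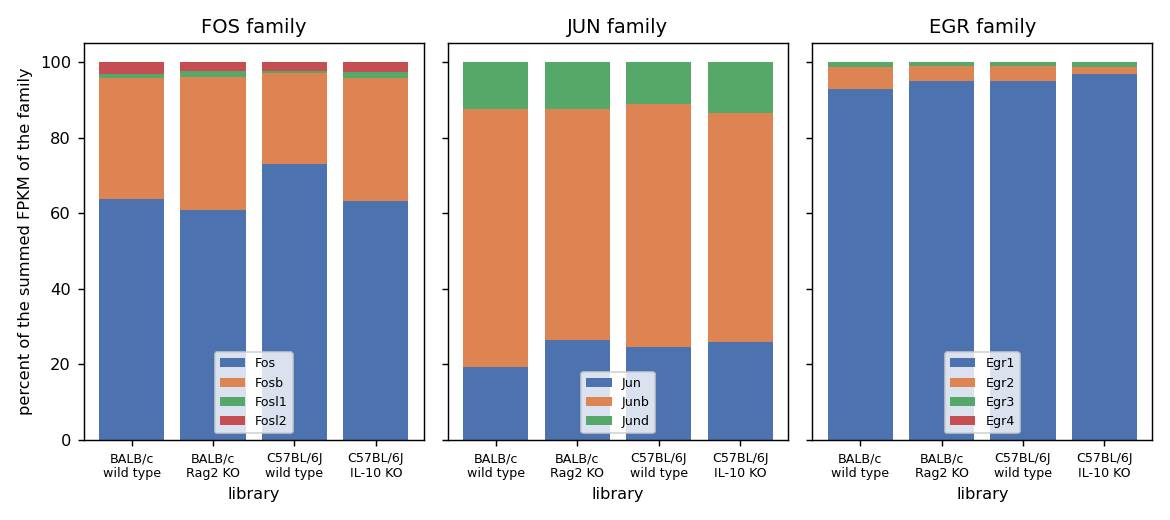
Share of each gene in the summed FPKM of its family, in percent, for the FOS, JUN and EGR families; each bar is 1 library. The Fos share is highest in C57BL/6J WT (73.1%), Junb leads the JUN family in all 4 libraries, and the Egr2 share is lowest in the IL-10 KO (1.87%).

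Atf3 (chromosome 1, 191170296 to 191183333), a stress-induced repressor that can pair with JUN proteins, had 1187 FPKM in BALB/c WT, 1101 in the Rag2 KO, 1182 in C57BL/6J WT and 1066 in the IL-10 KO. The libraries lay within 1.11 times of each other. The log2 ratios were -0.15 for IL-10, -0.11 for Rag2 and 0.01 between the WTs, so Atf3 and Fosb were the most even members.

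Egr1 (chromosome 18, 34861207 to 34864956), a zinc finger factor induced by growth factors and injury, had 4035 FPKM in BALB/c WT, 3292 in the Rag2 KO, 4721 in C57BL/6J WT and 2633 in the IL-10 KO. Both WTs were above both KOs, with the IL-10 KO lowest. The log2 ratios were -0.84 for IL-10, -0.29 for Rag2 and -0.23 between the WTs.

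Egr2 (chromosome 10, 67534469 to 67542188), a related factor with roles in nerve myelination and in lymphocyte tolerance, differed most. It had 251 FPKM in BALB/c WT, 139 in the Rag2 KO, 197 in C57BL/6J WT and 50.9 in the IL-10 KO. Both WTs were above both KOs, and the IL-10 KO was lowest by a wide margin. The log2 ratio was -1.93 for IL-10 and -0.85 for Rag2, whereas between the WTs it was 0.35. Egr2 was the only member at least 2-fold apart in any of the 3 comparisons.

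Egr1 and Egr2 did not keep a fixed proportion. The Egr1 to Egr2 ratio was 16.1 in BALB/c WT, 23.6 in the Rag2 KO, 24.0 in C57BL/6J WT and 51.8 in the IL-10 KO. Egr2 held 5.78% of the EGR family sum in BALB/c WT, 4.02% in the Rag2 KO, 3.95% in C57BL/6J WT and 1.87% in the IL-10 KO. Egr3, another member of the family, held 0.907% to 1.21% in the 4 libraries.

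Nr4a1 (chromosome 15, 101253902 to 101274795), an orphan nuclear receptor induced by antigen receptor and growth factor signals, had 1331 FPKM in BALB/c WT, 1447 in the Rag2 KO, 1916 in C57BL/6J WT and 1419.7 in the IL-10 KO. As for Fos and Jun, C57BL/6J WT was the high library and the others lay together. The log2 ratios were -0.43 for IL-10, 0.12 for Rag2 and -0.53 between the WTs.

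Ier2, an early response gene of less defined function, had 635 FPKM in BALB/c WT, 634 in the Rag2 KO, 869.6 in C57BL/6J WT and 496 in the IL-10 KO. The BALB/c libraries were level, and the C57BL/6J libraries lay on either side of them. The log2 ratios were -0.81 for IL-10, -0.003 for Rag2 and -0.45 between the WTs.

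The IL-10 comparison sets the library labelled IL-10 KO against its WT. All 10 immediate early genes were lower in the IL-10 KO than in C57BL/6J WT on the deposited scale, although Fosb moved to 0.0028 when the median ratio of well-measured genes was set to 0. Of the 12790 genes compared, those reaching 1 FPKM in either library, 50.2% were lower and 49.8% higher. The median log2 ratio was -0.59 for the 10 genes and -0.002 for all compared genes. Of the 10, 1 (Egr2) was at least 2-fold lower and 0 were higher, against 3.82% and 10.1% of all compared genes. That count is therefore close to the background, and the members shared a direction more than a size. Among genes with at least 50 FPKM in either library, a background chosen after seeing the data, 47.1% were lower and 7.17% at least 2-fold lower. At 1.5-fold the lower members were Fos, Junb, Egr1, Egr2 and Ier2, and 0 members were higher. Of the 12790 compared genes, 1393 were lower and 2104 higher at 1.5-fold.

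The Rag2 comparison sets the library labelled Rag2 KO against its WT. Of the 10 genes 7 were lower and 3 higher (Jun, Fosb and Nr4a1) on the deposited scale, against 50.5% and 49.5% of the 12336 compared genes. The median log2 ratio was -0.09 for the 10 and -0.004 for all compared genes. After rescaling to equal FPKM sums without small RNAs, Fosb and Nr4a1 were each at -0.02, and the median of all genes moved by -0.14. Among genes with at least 50 FPKM in either library 43% were lower and 2.52% at least 2-fold lower. None of the 10 was at least 2-fold apart in either direction, against 4.42% of compared genes higher and 2.03% lower. Of the genes at least 2-fold apart 68.5% were higher, and 51.0% after that rescaling. Egr2 had the lowest ratio in both KO comparisons, and Fos, Junb, Jund, Egr1, Atf3 and Ier2 were also lower in both, Ier2 for Rag2 within its counting interval. The log2 ratio of the IL-10 comparison was below that of the Rag2 comparison for all 10 genes, by a median of -0.55. These comparisons share no library. For Atf3 the difference was only -0.04, with counting intervals of 0.03 on either side in each comparison, so its direction is not resolved. Over 12048 genes 52.9% had a difference below 0, and its median was -0.03.

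**Figure D3:**
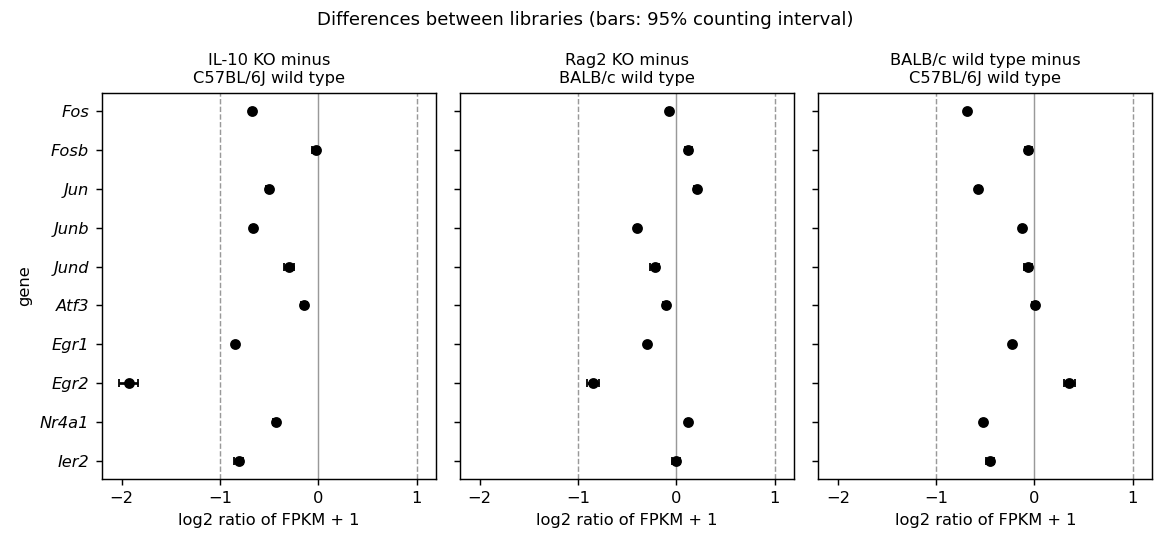
Log2 ratio of FPKM + 1 for each immediate early gene in the KO comparisons and between the WTs; points are single-library differences, bars are 95% counting intervals, and dashed lines mark 2-fold. Egr2 lies at -1.93 in the IL-10 comparison and is the only point beyond a dashed line.

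The WT comparison has a library in common with each KO comparison, so its values are only set beside them. BALB/c WT was lower than C57BL/6J WT for 8 of the 10 genes and higher for Egr2 and Atf3, against 49.3% and 50.7% of the 12290 compared genes. The median was -0.18 for the 10 genes and 0.004 for all compared genes. Fosb, one of the 8, was at 0.0017 after rescaling to equal FPKM sums without small RNAs. None of the 10 was at least 2-fold apart, against 1.81% of compared genes higher and 2.17% lower. Among genes with at least 50 FPKM in either library 54.8% were lower and 3.26% at least 2-fold lower. On the deposited scale C57BL/6J WT was the highest of the 4 libraries for 7 of the 10 genes, and the IL-10 KO the lowest for 6. Among these 6, Jund was nearly level in the IL-10 KO and the Rag2 KO (487 and 490.4 FPKM). How often each library was highest or lowest over all genes was not counted, so these counts have no background beside them. Genotype, individual animals and the dissociation and sort of each library cannot be told apart in these libraries. Nor can genotype and the sex-linked difference in the IL-10 comparison, nor strain and sex between the WTs.

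Of the 30 log2 ratios of the members, 27 were larger than their 95% counting interval. The 3 inside it were Fosb for IL-10, Ier2 for Rag2 and Atf3 between the WTs, so the direction of these is not resolved by the counts. By the transcript lengths used, each value of a member rested on about 1048 to 116492 fragments. The 95% interval of a log2 ratio from counting alone was at most 0.10 on either side. It covers counting error only and says nothing of the scaling or of the spread between animals or preparations. Fosb and Nr4a1 for Rag2 and Fosb between the WTs lay beyond it but changed sign after rescaling to equal FPKM sums without small RNAs.

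Markers of other cells moved with the comparisons, although the sort was meant to leave such cells out. Ptprc, which encodes CD45, had 43.1 FPKM in the IL-10 KO against 3.34 in its WT and 11.5 in the Rag2 KO against 8.31. All 6 pan-leukocyte genes passed 2-fold in the IL-10 KO, with a sum of 580 FPKM against 62.5, and 0 of 6 in the Rag2 KO (152.6 against 109 FPKM). The 8 neutrophil markers summed to 3851 FPKM in the IL-10 KO against 9.51, where 3 of them were listed at 0, and to 243 in the Rag2 KO against 23.6, where 1 was. Macrophage and monocyte markers passed 2-fold upward for 9 of 10 genes in the IL-10 KO (1441 against 186 FPKM) and for 4 of 10 in the Rag2 KO (723 against 344 FPKM). B cell markers passed 2-fold upward for 5 of 6 genes in the IL-10 KO (479 against 248 FPKM) and downward for 6 of 6 in the Rag2 KO (2.53 against 461 FPKM). T cell markers summed to 89.9 FPKM in the IL-10 KO against 6.79, and to 4.63 in the Rag2 KO against 15.2. Egr2 and Nr4a1 are known from lymphocytes and myeloid cells as well as from fibroblasts, and which cells their messages came from was not tested.

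Epithelial markers passed 2-fold upward for 10 of 10 genes in both KOs, from 96.8 to 373 FPKM for IL-10 and from 38.0 to 155 FPKM for Rag2. Smooth muscle markers passed 2-fold downward for 8 of 10 genes in the IL-10 KO (388 against 906 FPKM) and 6 of 10 in the Rag2 KO (495 against 1007 FPKM). The 5 markers of lymphatic endothelium, which also carries podoplanin, were lower for 5 of 5 genes in both KOs, with 2 at least 2-fold lower for IL-10. Their sums were 43.5 FPKM in the IL-10 KO against 70.0, and 59.0 in the Rag2 KO against 102. Blood endothelium markers had 0 of 10 genes past 2-fold in either KO. Pericyte markers summed to 81.4 FPKM in the IL-10 KO against 129.7, and to 119.9 in the Rag2 KO against 154.7. The 12 fibroblast markers were by far the most abundant of the marker lists, at 13116 to 15294 FPKM, with medians of -0.04 for IL-10 and -0.09 for Rag2. Of these, 2 were at least 2-fold lower for IL-10. The part of these cells in the immediate early values was not tested. In bulk samples, fewer cells of a type and less RNA per cell cannot be told apart.

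**Figure D4:**
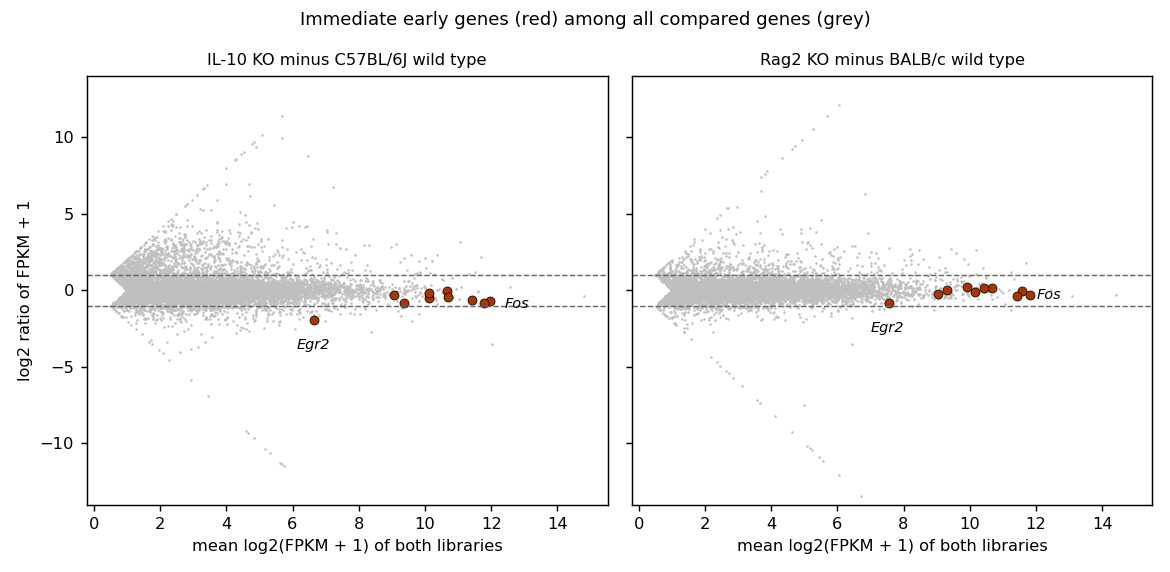
Log2 ratio of FPKM + 1 against the mean log2 level of both libraries for all compared genes (grey) and the immediate early genes (red), in each KO comparison. The red points lie at the right, among the most abundant genes, and Egr2 is the only red point beyond a dashed 2-fold line, in the IL-10 comparison (-1.93).

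The wider pathway was read through 6 further gene lists. The rescaling to equal FPKM sums lowers their medians by a like amount for every list (the median of all genes moved by -0.12 for IL-10), and values below are on the deposited scale. Of the 22 other bZIP genes, which encode possible partners of FOS and JUN proteins, 3 were at least 2-fold higher in the IL-10 KO and 0 lower (median 0.04). In the Rag2 KO 1 was higher and 0 lower (median -0.16). Batf2, an interferon-induced partner of JUN proteins, had 20.7 FPKM in the IL-10 KO against 3.93, and 62.1 in the Rag2 KO against 10.9. Fosl1, a FOS relative without the transactivation domain of Fos, had 88.0 FPKM in the IL-10 KO against 38.1 (1.19) and 80.9 in the Rag2 KO against 50.1 (0.68). Fosl1 thus lay on the other side of 0 from Fos in both comparisons. Batf3, a factor of dendritic cells, had 5.91 against 2.27 FPKM (1.08) for IL-10. The Batf3 values rested on about 30 against 12 fragments, and the 95% counting interval of this ratio was 0.97 on either side. Crem, a cyclic AMP-responsive factor, had a log2 ratio of -0.11 for IL-10 and -0.72 for Rag2.

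Of the other immediate early nuclear factors 15 of 16 had enough signal, and none was at least 2-fold apart in either KO on the deposited scale. Their medians were -0.23 for IL-10 and -0.26 for Rag2. Nr4a2, a relative of Nr4a1, had 64.5 FPKM in the IL-10 KO against 125 (-0.94) and 75.0 in the Rag2 KO against 98.0 (-0.38). Egr3 had 31.3 against 50.7 FPKM for IL-10 (-0.68) and 31.4 against 52.6 for Rag2 (-0.73). Ier5l and the clock-linked repressor gene Bhlhe40 were at -0.83 and -0.49 for IL-10 and at -0.63 and -0.58 for Rag2.

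Feedback inhibitors switch off kinases or messages of the response. In the IL-10 KO 2 of the 22 genes passed 2-fold downward and 1 upward (median -0.24). In the Rag2 KO 0 passed it on the deposited scale (median -0.10), and 2 passed it downward after the rescaling. The lower genes were Spry1 and Spry4, which encode inhibitors of receptor tyrosine kinase signalling. Spry1 had 54.9 FPKM in BALB/c WT, 30.2 in the Rag2 KO, 74.0 in C57BL/6J WT and 18.0 in the IL-10 KO, the same order of WTs above KOs as Egr2. Its log2 ratios were -1.98 for IL-10 and -0.84 for Rag2. Spry4 was at -1.20 and -0.95. The higher gene was Dusp2, a MAPK phosphatase of leukocytes, with 21.4 against 9.24 FPKM (1.13). Gadd45b, a stress-induced regulator of kinases, was at -0.71 for IL-10 and -0.31 for Rag2.

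The 19 upstream kinase and serum response factor genes were centred near 0, with medians of 0.06 for IL-10 and 0.05 for Rag2, and of -0.08 and -0.09 after the rescaling. Only Rps6ka1, a kinase downstream of ERK, passed 2-fold, at 7.03 FPKM in the IL-10 KO against 1.87. Mapk7, which encodes ERK5, had 9.98 against 17.5 FPKM for IL-10 (-0.75). Elk3 and Mkl1, partners of serum response factor, were at 0.56 and 0.48 for IL-10 and at -0.09 and -0.10 for Rag2.

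Heat shock genes, another rapid stress response, had higher medians than the immediate early genes in both comparisons, and for IL-10 their ranges overlapped. Of the 11 genes 10 were higher in the IL-10 KO on the deposited scale (median 0.08), but 4 after rescaling to equal FPKM sums without small RNAs (median -0.05). In the Rag2 KO all 11 were higher on both scales (medians 0.41 and 0.27). Only Hspb1, a small heat shock protein, passed 2-fold, with 151.9 FPKM in the Rag2 KO against 65.1 (1.21). Hspd1 and Hspe1, the chaperonin pair of mitochondria, were at 0.80 and 0.75 for Rag2 and at 0.54 and 0.49 for IL-10. Hsph1, a cochaperone, was at 0.72 for IL-10 and 0.64 for Rag2.

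Secreted and cytoplasmic induced genes split. In the IL-10 KO 5 of 19 genes passed 2-fold upward, 3 after the rescaling, and 5 downward on both scales (median 0.32). In the Rag2 KO 6 passed it upward on both scales (median 0.40 as deposited). Downward, 0 passed it in the Rag2 KO on the deposited scale and 1 after the rescaling. Ccl2, a monocyte chemokine, had 255 FPKM in BALB/c WT, 1134 in the Rag2 KO, 343 in C57BL/6J WT and 1678 in the IL-10 KO. Mmp3, a matrix protease, was at 2.49 for IL-10 and 2.97 for Rag2, and the protease inhibitor gene Timp1 at 2.07 and 2.17. The genes lower in the IL-10 KO were Plau, the urokinase gene (-1.60), and, named after their values were seen, Plk2 (-1.56), Arc (-1.39), Ctgf (-1.21) and Hbegf (-1.05). Also named after their values were seen, Plaur and Cxcl1 were higher for IL-10 (1.08 and 1.04), and Cxcl1, Il6 and Ereg for Rag2 (1.19, 1.17 and 1.16).

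**Figure D5:**
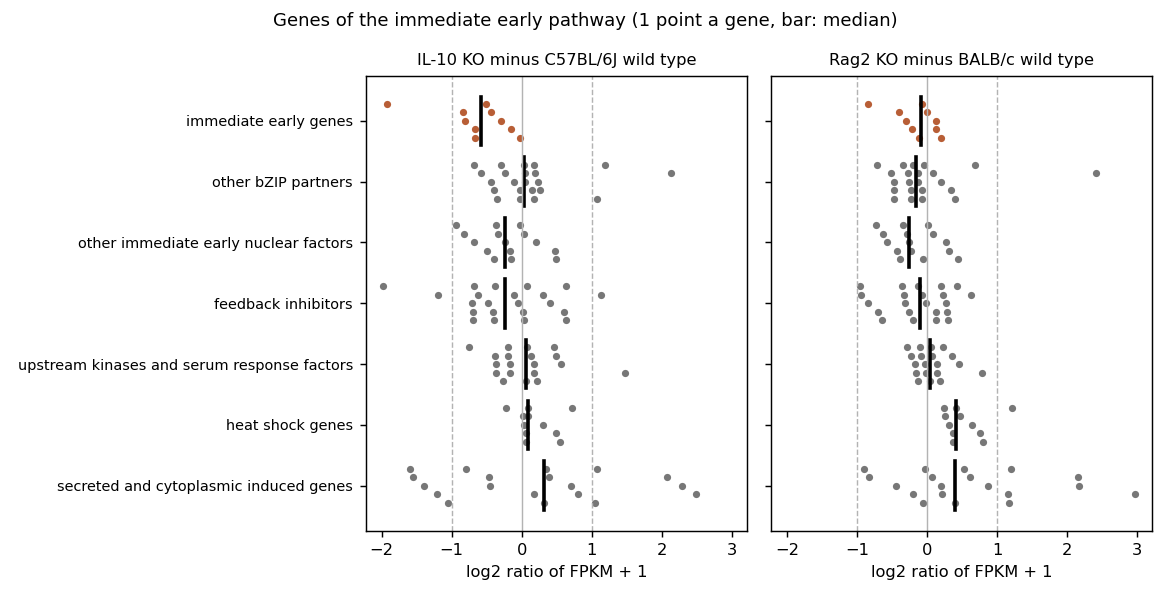
Log2 ratio of FPKM + 1 for the immediate early genes (red) and 6 further lists of the pathway (grey) in the KO comparisons; 1 point is a gene, black bars are medians and dashed lines mark 2-fold. The immediate early genes have the lowest median in the IL-10 comparison (-0.59), while the secreted and cytoplasmic genes spread to both sides.

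Genes of like pattern were sought among 6918 other genes with at least 5 FPKM in every library, by the root mean square difference of centred log2 profiles over the 4 libraries. The nearest to Fos were Snapc2 (0.057), Rasd1 (0.058), Cacna1d (0.068), Matn2 (0.069) and Itpripl2 (0.071). Rasd1, for example, had 16.4 FPKM in BALB/c WT, 16.5 in the Rag2 KO, 25.5 in C57BL/6J WT and 16.1 in the IL-10 KO. The nearest to the mean profile of the 10 genes were Dvl3, Pygb, Idh2, Zfp146 and Rrp8, at 0.011 to 0.029. Within 0.1 of the mean profile there were 275 genes, so 4 libraries do not single out a few. Among the members, Ier2, Junb and Egr1 lay nearest to their mean profile (0.086 to 0.092) and Egr2 farthest (0.68).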

How the data were processed

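Per the file headers, the values deposited by the authors are FPKM, listed by gene symbol. For reads and alignments the submitters' processing notes list the build mm10 and these tools: Cuffdiff 2.2.1, TopHat2 2.1.1, SAMtools 0.1.18 and Bowtie2 2.2.8. Which annotation, strand option and normalization Cuffdiff used is not stated in the sources used here. Per the labels' protocols, RNA came from a miRNeasy kit and libraries from a TruSeq stranded mRNA kit.

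Comparisons used log2(FPKM + 1), over genes reaching 1 FPKM in either library, and genes were counted at 2-fold, with pandas 2.3.3. The counting code was tested on simulated data, which gives no error rate for differences between animals. Fragments were estimated from low FPKM of single-transcript genes of at least 1000 nt, with 200 nt taken off the length: 72.5% to 74.2% of values of 1 to 4 fragments lay within 5% of a whole number. A transcript of 2000 nt needs 0.168 to 0.199 FPKM for 3 fragments. For members, the shortest coding transcript of at least 1000 nt was used.

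The members and lists were chosen with earlier results of these data known. Named list genes were up to 4 per list with the largest absolute log2 ratio in a KO comparison at 5 FPKM or more. The pattern rule named the 5 nearest genes. Positions and promoters are from RefSeq (GRCm38.p6), exons from GENCODE M21 (GRCm38), both of the build mm10. Alternatives were other pseudocounts, filters, scalings and a 1.5-fold threshold.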

Additional observations from a re-analysis of the deposited data

Results flagged for a closer look

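Of the members and the pathway list genes named above, Jun, Nr4a1 and Arc lay on opposite sides of 0 in the KO comparisons. Each ratio was beyond its counting interval, and with 1 library per group the difference was not tested. Jun had log2 ratios of -0.50 for IL-10 and 0.21 for Rag2, a difference of -0.71. Nr4a1 was at -0.43 and 0.12, a difference of -0.55. After rescaling to equal FPKM sums without small RNAs, Jun was at 0.06 for Rag2. Nr4a1 was then at -0.02 for Rag2 and so on the same side in both. Arc, an immediate early gene known from neurons and named after its values were seen, was at -1.39 and 0.40, a difference of -1.79. Over the members and the 6 pathway lists, 17 of 118 genes with signal in both comparisons met the same condition, among them Dusp4, Atf5 and Myc, which were chosen after their values were seen. Dusp4 was at 0.64 and -0.94, Atf5 at -0.35 and 0.40, and Myc at 0.49 and -0.23.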

How the results depend on the processing

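No paired analysis was possible because each group has 1 library and the labels carry no replicate numbers. Of 120 member values under the other pseudocounts and scalings, 116 kept their sign, and the 4 others were ratios of Fosb and Nr4a1 near 0. Rescaling to equal FPKM sums without small RNAs moved the members' median to -0.72 for IL-10, -0.23 for Rag2 and -0.11 between the WTs. With the median ratio set to 0, the median difference between the KO comparisons was -0.51. At 1.5-fold, 5 members were lower for IL-10, 1 for Rag2 (Egr2) and 1 between the WTs (Fos), and 0 were higher. Over all compared genes, 1393 of 12790, 944 of 12336 and 783 of 12290 were lower at 1.5-fold, and 2104, 1270 and 725 higher. Counts over all genes depended on the setting. For IL-10, genes higher numbered 1297 as reported, 611 with a pseudocount of 5, 846 at 5 FPKM or more, 207 at 50 FPKM or more and 2104 at 1.5-fold. Genes lower numbered 488, and 787 with a pseudocount of 0.1, 182 with 5, 905 after rescaling to equal sums, 1393 at 1.5-fold and 113 at 50 FPKM. For Rag2, genes higher numbered 545, and 278 with a pseudocount of 5, 1270 at 1.5-fold and 137 at 50 FPKM. Genes lower numbered 251, and 532 with a pseudocount of 0.1, 68 with 5, 159 at 5 FPKM, 634 after rescaling to equal sums, 944 at 1.5-fold and 38 at 50 FPKM. Between the WTs, genes higher numbered 223, and 477 with a pseudocount of 0.1, 56 with 5, 129 at 5 FPKM, 512 after rescaling to equal sums, 725 at 1.5-fold and 22 at 50 FPKM. Genes lower numbered 267, and 452, 104, 423 (rescaled), 783 (1.5-fold) and 46 (50 FPKM) under the same changes. The causes were not tested. The 50 FPKM filter was added after seeing the data.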

Other observations

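Hspa8, the constitutive heat shock chaperone gene, was named after its values were seen. It had 120 FPKM in BALB/c WT, 148 in the Rag2 KO, 384 in C57BL/6J WT and 408 in the IL-10 KO. Both BALB/c libraries lay below both C57BL/6J libraries for Hspa8, with a log2 ratio of -1.67 between the WTs. Its ratios in the KO comparisons were 0.09 for IL-10 and 0.31 for Rag2. Strain, sex and the mapping of reads to mm10 cannot be told apart here, and none was tested.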
